A study of Mus musculus with 19 samples.

Results

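Blastoids on day 2 of culture were compared with blastoids on day 1, over all genes of the count table, to ask how expression changed over the first day after the aggregates had formed. The comparison used 6 of the 19 libraries of the series, 3 from day 2 and 3 from day 1. All 6 came from TT2, a mouse embryonic stem cell line (labelled TT2-mESC) grown on a layer of inactivated mouse embryonic fibroblasts. Both days carry the same label of treatment, 6 h of pladienolide B (PlaB), given in the protocol at 20 nM after 48 h of seeding, so the comparison holds no untreated cells. PlaB binds the SF3B complex of the spliceosome. Blastoids are aggregates of stem cells in 3D microwells that are meant to resemble the blastocyst. Whether the compound was still present in the microwells is not given in the labels. The labels do not state that the libraries of a day were separate cultures, and the p-values therefore reflect only how these samples vary, and part of that variation may be technical.

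The blastocyst has an outer epithelium, the trophectoderm, which builds junctions and pumps fluid, and an inner cell mass of pluripotent cells. Keratins, GATA factors and other regulators mark the trophectoderm, whereas Nanog, Sox2 and Oct4 (Pou5f1) maintain pluripotency. BMP signals act through SMAD proteins on targets such as the Id and Msx genes. Immediate early genes are transcribed within minutes of a growth factor or stress signal and their mRNAs are short-lived.

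Each library was made from polyadenylated RNA by Smart-seq2, a method that copies whole transcripts and carries no molecular identifiers, and the table holds raw counts of reads per gene. Totals were 5889140 to 7291420 counts on day 2 and 3684787 to 6816649 on day 1, with 22862 to 23044 and 20475 to 22858 genes counted at least once. Levels are given as TMM-scaled CPM (the count relative to the library's scaled total), and a gene was called when its adjusted p from edgeR's quasi-likelihood test was under 0.05. Pluripotency was measurable on both days, with Nanog at 213 to 244 CPM on day 2 and 244 to 379 CPM on day 1. Of the fibroblast markers, Tagln and S100a4 had no counts on either day, and the listed markers summed to 1101 to 1333 CPM on day 2 and 915.8 to 1402 CPM on day 1. Mitochondrially encoded genes took 4.80% ± 0.99 of the counts on day 2 and 3.44% ± 1.28 on day 1 (mean ± SD, n = 3 each). Day 1 replicate 3 stood closer to the day 2 libraries than replicates 1 and 2 did: its mitochondrial share was 4.92%, against 2.60% and 2.81% in those 2 libraries.

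Of 15121 tested genes, 255 were called higher on day 2 (1.69%) and 797 lower (5.27%). Among them 173 (1.14% of tested genes) were at least 2-fold higher and 704 (4.66%) at least 2-fold lower. The step was smaller than the later ones in number of calls. In all, 6.96% of genes were called between day 2 and day 1, against 25.6% between day 3 and day 2, 27.9% between day 4 and day 3 and 28.6% between day 5 and day 4; neighbouring steps share libraries, and the difference between these shares was not tested. The libraries of both days did not overlap for 2355 genes that were higher on day 2 (15.6%) and for 2499 that were lower (16.5%). The count depended on single libraries: without day 1 replicate 1 there were 60 calls higher and 366 lower, and without day 1 replicate 3 there were 388 and 1102. It depended also on the later days in the fit: with only the 6 libraries of days 1 and 2 fitted there were 731 and 1305.

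**Figure D1:**
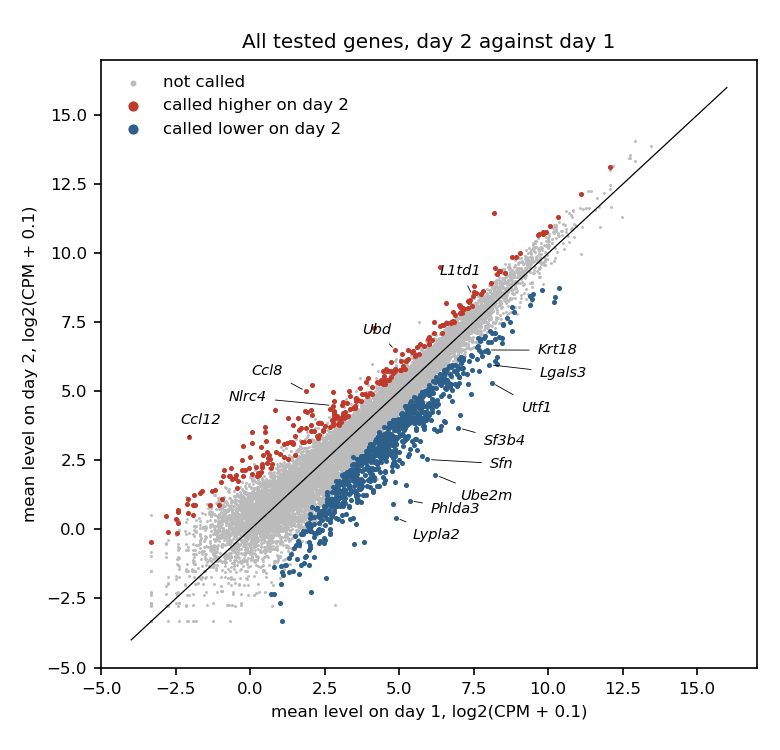
Mean level of each tested gene on day 2 (vertical axis) and day 1 (horizontal axis), both as log2(CPM + 0.1), with called genes coloured and the diagonal marking equal levels. The 797 genes called lower on day 2 lie below the diagonal mostly at middle levels, and the 255 called higher lie above it.

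The fall on day 2 lay mostly in GC-rich genes. Of 3303 genes with more than 54% GC in the longest transcript, 579 were called lower (17.5%) and 12 higher, with a median log2 fold change of -0.62. Among genes up to 42% GC, 67 were called higher and 5 lower, with a median of 0.29. Across 15016 genes, which are not independent replicates, the Spearman correlation between GC content and log2 fold change was -0.47. The level of GC-rich relative to GC-poor genes, as a log2 deviation from the mean over the blastoid libraries, was 0.06, 0.04 and 0.16 in the day 2 libraries and 1.16, 1.26 and 0.50 in the day 1 libraries. The groups did not overlap in this measure, and day 1 replicate 3 was again nearest to day 2. With the GC trend of each library removed, calls numbered 210 higher on day 2 (1.39%) and 402 lower (2.66%), or 4.05% of tested genes in either direction. Both analyses called 460 genes in the same direction, which is 43.7% of the uncorrected calls, and 0 in opposite directions. Whether GC-related loss during library preparation took part in these changes was not tested, so GC-corrected counts or values are given below where they change the call of a named gene. Among gene classes, 31 of 407 long intergenic non-coding RNAs were called higher (7.62%) and 1 lower, against 170 higher and 782 lower of 12544 protein-coding genes.

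**Figure D2:**
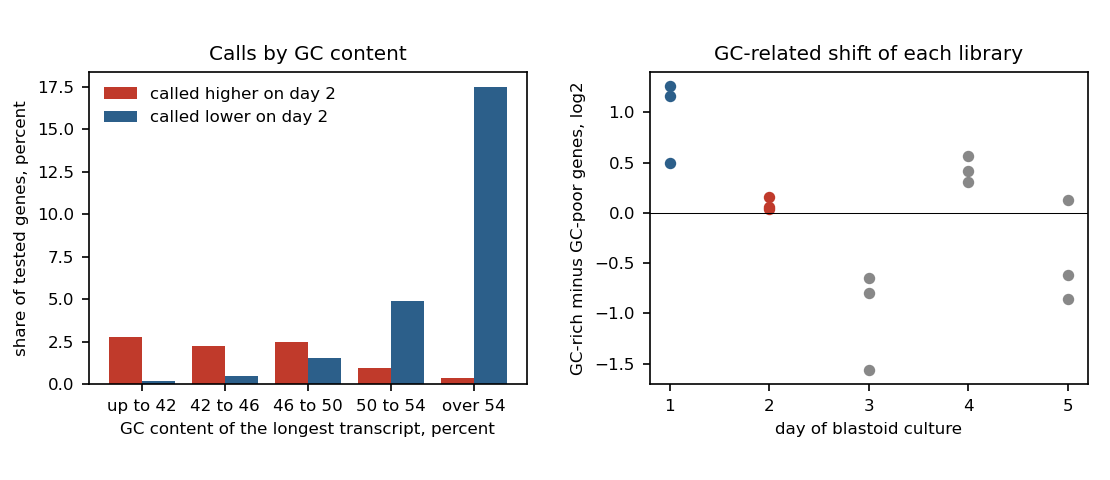
Left, the share of tested genes called higher or lower on day 2 in 5 classes of transcript GC content (percent). Right, the level of GC-rich minus GC-poor genes (log2) in each library of days 1 to 5; the 3 day 2 libraries lie between 0.04 and 0.16 and the 3 day 1 libraries between 0.50 and 1.26.

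With numbered gene models and genes under 10 CPM on the higher day left out, the chemokine genes Ccl12 and Ccl8, whose products attract monocytes and which neighbour each other on chromosome 11 (82101845 to 82103400 and 82115185 to 82116799, GRCm38), rose most on day 2. Ccl8 had 33.5, 29.8 and 32.9 CPM on day 2, against 2.62, 4.01 and 4.01 CPM on day 1 (log2 fold change 3.19 ± 0.57, SE; adjusted p = 0.00186). Ccl12 had 7.90, 10.7 and 11.8 CPM on day 2, against 0, 0 and 0.415 CPM on day 1. Its counts were 202 over the day 2 libraries, against 3 over the day 1 libraries, a ratio of 66.3 with a 95% exact counting interval of 22.4 to 324 that covers counting error only. The sequences of such chemokine genes are alike, so reads may be shared between them. H2-T23, a non-classical MHC class I gene, had 14.6, 2.81 and 16.4 CPM on day 2, against 0.624, 0.707 and 2.63 CPM on day 1 (3.02 ± 0.60, adjusted p = 0.00409). It has close paralogs and overlaps another gene, so this value is uncertain. Nlrc4, which encodes a sensor of the inflammasome, had 23.9, 22.9 and 20.1 CPM on day 2, against 6.99, 5.66 and 7.61 CPM on day 1 (1.71 ± 0.26, adjusted p = 0.000447); it too overlaps another gene model.

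Developmental transcription factor genes were also among the 12 largest rises. Zic5, a zinc finger factor, had 31.9, 24.9 and 18.4 CPM on day 2, against 8.99, 4.48 and 7.34 CPM on day 1 (1.82 ± 0.36, adjusted p = 0.00413). Sox11, known from neural precursors, had 28.7, 19.8 and 23.7 CPM on day 2, against 8.62, 9.20 and 7.61 CPM on day 1 (1.51 ± 0.27, adjusted p = 0.00172). Both genes were named by a rule that requires a call and no overlap between the days, so neither trait is added support. The microtubule-binding gene Map7d3 (1.81 ± 0.26), Rpl39l, a paralog of the ribosomal protein gene Rpl39 (1.69 ± 0.26), and Ccdc63 (2.05 ± 0.40) rose too. They completed the rises whose calls stayed under all 13 alternative runs computed for single genes. Zmat4 (1.92), the ubiquitin-like gene Ubd (1.61) and the non-coding RNA Platr27 (1.59) were called as well, but not without day 1 replicate 1 (1.74, 1.48 and 1.33, adjusted p = 0.0562, 0.0534 and 0.0587).

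**Figure D3:**
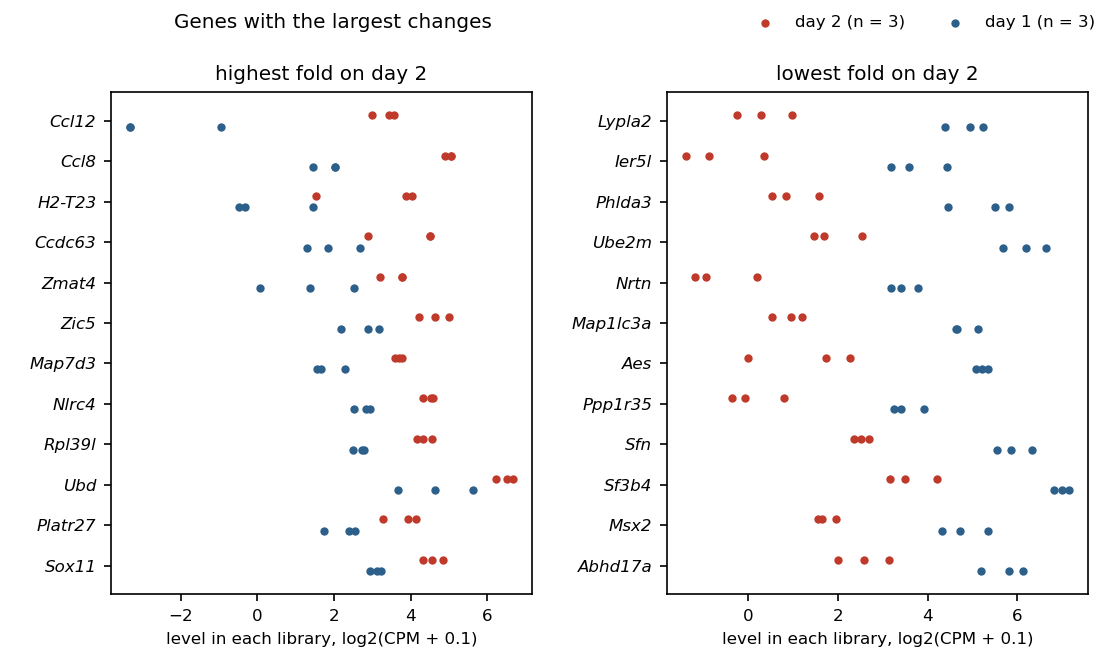
Level of each library, log2(CPM + 0.1), for the 12 genes with the largest rise (left) and the largest fall (right) on day 2 by the naming rule; red points are the 3 day 2 libraries and blue points the 3 day 1 libraries. In every gene shown, all day 2 points lie on one side of all day 1 points, which the naming rule requires.

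By the same rule, the 12 largest falls on day 2 had log2 fold changes between -4.58 and -3.13. Lypla2, an acyl-protein thioesterase, had 1.85, 1.12 and 0.744 CPM on day 2, against 30.8, 37.5 and 20.9 CPM on day 1 (log2 fold change -4.58 ± 0.45, adjusted p = 5.96e-06). Ube2m, the enzyme that passes NEDD8 to cullins, had 5.72, 2.67 and 3.12 CPM on day 2, against 72.7, 98.8 and 50.7 CPM on day 1 (-4.28 ± 0.36, adjusted p = 1.4e-06). Map1lc3a, a protein of the autophagosome membrane, had 2.19, 1.83 and 1.34 CPM on day 2, against 24.5, 34.4 and 24.9 CPM on day 1 (-3.96 ± 0.43, adjusted p = 1.66e-05). In each of these every day 2 library lay below the lowest day 1 library, which the rule requires. Ier5l (-4.48), the neurotrophic factor gene Nrtn (-4.15), the Groucho-family corepressor gene Aes (-3.66), the centriole gene Ppp1r35 (-3.44) and the depalmitoylase gene Abhd17a (-3.13) fell too, with adjusted p between 9e-06 and 0.000244. Their transcripts were GC-rich, between 57.4% and 72.8%. After removal of the GC trend these 8 genes had log2 fold changes between -3.51 and -1.76 and adjusted p of at most 0.0353.

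Most tested trophectoderm markers fell on day 2. Of 30 markers 27 were tested, 16 were called lower (59.3%, beside 5.27% of all tested genes) and 11 did not pass, and their median log2 fold change was -1.46, beside 0.03 over all tested genes. All 30 markers together summed to 495.2, 800.0 and 703.8 CPM on day 2, against 1539, 1555 and 1319 CPM on day 1. In 18 markers the libraries of day 2 lay below all those of day 1, with 16.5% of all genes behaving so. With the GC trend removed 12 fell (median -1.13), and leaving out any 1 library left 12 to 15 called lower. In bulk RNA, fewer cells of a type and less RNA per cell cannot be told apart.

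Krt18, a keratin gene of simple epithelia (chromosome 15, 102028180 to 102032027), had 53.3, 105 and 113 CPM on day 2, against 272, 277 and 197 CPM on day 1 (-1.46 ± 0.29, adjusted p = 0.00383). Its partner Krt8 had 17.8, 39.9 and 32.7 CPM on day 2, against 99.5, 112 and 56.6 CPM on day 1 (-1.56 ± 0.30, adjusted p = 0.0029), with a gene model on its locus that makes the count uncertain. The day 2 levels of both were lowest in replicate 1. Krt7 (-1.92 ± 0.40) and Krt19 (-2.26 ± 0.38) were called lower too, although the days overlapped for Krt7. Lgals3, which encodes galectin 3, had 57.0, 63.1 and 67.2 CPM on day 2, against 364, 182 and 235 CPM on day 1 (-2.06 ± 0.25, adjusted p = 4.09e-05). Sfn, the 14-3-3 protein sigma of epithelia, had 5.04, 5.62 and 6.40 CPM on day 2, against 58.1, 79.7 and 46.8 CPM on day 1 (-3.42 ± 0.33, adjusted p = 5.48e-06), the largest called fall in the list.

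Transcription factors of the lineage differed among themselves. Gata2 had 1.68, 2.95 and 2.38 CPM on day 2, against 10.1, 10.6 and 9 CPM on day 1 (-2.06 ± 0.29, adjusted p = 0.000204), whereas Gata3 had 3.87, 2.11 and 2.98 CPM on day 2 and 2.75, 3.30 and 2.21 CPM on day 1 (0.13 ± 0.38, adjusted p = 0.879). Eomes did not pass either (-0.14, adjusted p = 0.861), and Cdx2 had too few counts to test. Tfap2c (-1.29), Elf3 (-1.41), Hand1 (-2.73) and Gcm1 (-2.62) were called lower too, of which Hand1 and Gcm1 are factors of trophoblast and placenta. With the GC trend removed Tfap2c and Elf3 did not pass (adjusted p = 0.0694 and 0.0559). Plac1, a placental gene, had 2.19, 2.11 and 2.98 CPM on day 2, against 9.12, 6.13 and 19.7 CPM on day 1 (-2.28 ± 0.39, adjusted p = 0.00118). Tead4, which acts upstream of Cdx2, was at 5.21, 3.23 and 2.83 CPM on day 2 and 9.24, 8.96 and 6.92 CPM on day 1 and did not pass (adjusted p = 0.0736).

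Genes of epithelial junctions and fluid transport were lower in part. All 28 listed genes were tested, and 8 fell (28.6%, beside 5.27% of all tested genes), with a median log2 fold change of -0.47. The water channel gene Aqp3 had 2.35, 2.53 and 4.46 CPM on day 2, against 23.0, 30.9 and 12.6 CPM on day 1 (-2.81 ± 0.39, adjusted p = 0.000153). The claudin gene Cldn4, a tight junction component, had 3.19, 3.79 and 3.87 CPM on day 2, against 24.4, 31.4 and 9.14 CPM on day 1 (-2.56 ± 0.42, adjusted p = 0.00076). In both genes day 1 replicate 3 was the lowest of its day, and still above every day 2 library. Cldn3 (-2.33) and the plakoglobin gene Jup (-1.69) were called, but not with the GC trend removed (-1.10 and -0.92, adjusted p = 0.101 and 0.0666), and only 3 members of the list were called lower in that setting. Without 1 library the list had 6 to 11 calls lower.

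Some BMP pathway and immediate early genes fell on day 2. Of 14 genes of the BMP pathway 6 fell (42.9%, beside 5.27% of all tested genes) and 8 did not pass (median log2 fold change -0.52). Those that fell were Msx2, Msx1, Id1, Id2, Smad6 and Dusp9. Msx2, a homeobox gene, had 3.03, 3.79 and 2.83 CPM on day 2, against 26.1, 40.6 and 19.7 CPM on day 1 (-3.14 ± 0.32, adjusted p = 7.98e-06). Id2, an inhibitor of basic helix-loop-helix factors that also marks trophectoderm, had 91.3, 119 and 119 CPM on day 2, against 238, 277 and 304 CPM on day 1 (-1.31 ± 0.20, adjusted p = 0.00042). Id1 had 79.0, 85.3 and 102 CPM on day 2, against 274, 256 and 185 CPM on day 1 (-1.42 ± 0.27, adjusted p = 0.00231). None of these 3 genes overlapped between the days, and each was called with the GC trend removed. The ligand gene Bmp4 did not pass (0.23, adjusted p = 0.691), nor did Id3 (-0.68, adjusted p = 0.204). The fall of Smad6 (-2.29 ± 0.59, adjusted p = 0.0217), which encodes an inhibitory SMAD, was lost with the GC trend removed (-1.34, adjusted p = 0.254) and without any 1 of 5 of the 6 libraries (adjusted p = 0.0525 to 0.106). The list had 3 calls and a median of -0.20 with the GC trend removed, and 3 calls also without day 1 replicate 1 or 2 or day 2 replicate 2 or 3.

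All 20 immediate early genes were tested. Of these 7 fell (Fos, Fosl1, Junb, Ier2, Ier3, Dusp1 and Zfp36), 13 did not pass, and the median was -1.04. The share called lower was 35%, beside 5.27% of all tested genes. Promoter sequence is shown for 3 of them, as those of the called immediate early genes whose windows hold a motif marked below. The 250 bases before the start are taken from RefSeq (GRCm38.p6, strand of the gene, 5′ to 3′), which had a promoter for 9 of the 13 called genes of both lists. Capitals mark the cAMP response element TGACGTCA, the sequence GGCGCC, the TATA box TATAAA, the CArG box or the AP-1 motif TGANTCA, searched on both strands.
Fos (chr12:85473640-85473889, + strand): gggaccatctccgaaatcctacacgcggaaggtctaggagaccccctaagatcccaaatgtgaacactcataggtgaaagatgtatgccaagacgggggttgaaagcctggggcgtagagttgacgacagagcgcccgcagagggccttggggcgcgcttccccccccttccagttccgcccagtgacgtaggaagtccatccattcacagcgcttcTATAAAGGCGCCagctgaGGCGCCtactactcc
Dusp1 (chr17:26508473-26508722, - strand): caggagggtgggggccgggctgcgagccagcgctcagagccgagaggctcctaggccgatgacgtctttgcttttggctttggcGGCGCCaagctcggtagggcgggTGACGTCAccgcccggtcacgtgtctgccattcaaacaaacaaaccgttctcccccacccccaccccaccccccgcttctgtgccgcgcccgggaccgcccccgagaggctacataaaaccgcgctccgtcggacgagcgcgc
Zfp36 (chr7:28379229-28379478, - strand): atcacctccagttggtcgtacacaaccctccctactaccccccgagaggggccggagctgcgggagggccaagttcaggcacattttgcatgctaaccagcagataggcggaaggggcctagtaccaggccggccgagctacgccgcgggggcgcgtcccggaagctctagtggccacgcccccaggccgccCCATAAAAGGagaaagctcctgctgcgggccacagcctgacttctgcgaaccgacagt
The window of Fos holds TATAAA starting 33 bases before the start, GGCGCC at 27 and 15 bases, and the shorter element TGACG at 129 and 66 bases. The window of Dusp1 holds the full TGACGTCA 143 bases before the start, which contains 2 of its 3 shorter elements, and GGCGCC at 166 bases. The window of Zfp36 holds a CArG box, the site read by serum response factor, 58 bases before the start. The windows of Junb and Ier3, the other called immediate early genes with a RefSeq promoter, hold none of the capitalised motifs. Of the called BMP genes with a promoter, Id2 holds GGCGCC at 231 bases. The windows of Smad6, Msx1 and Msx2 hold none of the capitalised motifs. Of 32851 promoters of the same length, 1.55% hold TGACGTCA, 17.8% TGACG, 9.59% GGCGCC, 12.4% TATAAA, 6.75% TGANTCA and 1.47% a CArG box. Among 13221 promoters of tested genes, the shares were 2.52%, 25.7%, 16.1%, 6.81%, 4.60% and 1.20%. Among 840 promoters of genes called lower on day 2, they were 2.5%, 25.2%, 18.3%, 5.6%, 4.88% and 1.43%. These matches describe the letters and show no use of the sites. Promoters of genes called lower on day 2 had a median GC content of 62.0% (840 promoters), those of genes called higher 52.8% (193 promoters), and those of all tested genes 59.6%.

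Fos, a subunit of the AP-1 factor, had 6.89, 5.48 and 8.63 CPM on day 2, against 15.4, 20.5 and 23.3 CPM on day 1 (-1.49 ± 0.31, adjusted p = 0.00516). Dusp1, a phosphatase that switches off MAP kinases, had 11.4, 14 and 18.3 CPM on day 2, against 38.2, 37.7 and 28 CPM on day 1 (-1.24 ± 0.25, adjusted p = 0.00438), at a locus that other gene models overlap. Zfp36, which destabilises mRNAs with AU-rich ends, had 2.35, 2.81 and 2.53 CPM on day 2, against 7.12, 11.8 and 4.71 CPM on day 1 (-1.58 ± 0.37, adjusted p = 0.0121). The days did not overlap in any of the 3. Fosl1 fell as well (-2.21 ± 0.44, adjusted p = 0.00379). Fos, Fosl1 and Dusp1 were the 3 calls of the list with the GC trend removed, where the median was -0.54. Ier2 (-1.39, adjusted p = 0.000849), an immediate early nuclear protein gene, was not called in that setting (-0.39, adjusted p = 0.332), nor was Zfp36 (adjusted p = 0.0735).

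Few pluripotency genes were called. All 30 naive and general pluripotency genes were tested, and 27 did not pass (median 0.11). Of the 30, 1 rose (3.33%, beside 1.69% of all tested genes) and 2 fell (6.67%, beside 5.27%), so the shares called were near those of all genes. At an unadjusted p under 0.05 in edgeR's test, 8 were higher and 3 lower. In 9 every day 2 library lay above every day 1 library (beside 15.6% of all genes), and in 4 below (beside 16.5%). The 30 genes summed to 12600, 12520 and 11900 CPM on day 2, against 7628, 7236 and 9078 CPM on day 1. With the GC trend removed 3 were called higher (beside 1.39% of all tested genes) and 1 lower (beside 2.66%), with a median of 0.33. Utf1, a chromatin factor of stem cells, had 46.7, 33.3 and 39.0 CPM on day 2, against 341, 257 and 230 CPM on day 1 (-2.80 ± 0.33, adjusted p = 3.32e-05). L1td1, an RNA-binding protein derived from a LINE element, had 358, 373 and 324 CPM on day 2, against 179, 154 and 197 CPM on day 1 (0.99 ± 0.19, adjusted p = 0.00328). Both calls stayed under all 13 alternative runs computed for single genes. Pou5f1 had 11.8, 19.2 and 16.4 CPM on day 2, against 51.0, 31.8 and 32.7 CPM on day 1 (-1.29 ± 0.29, adjusted p = 0.00861). This call ended with the GC trend removed (-0.64, adjusted p = 0.188), without day 1 replicate 1 (-1.05, adjusted p = 0.0872) and without day 2 replicate 1 (-1.11, adjusted p = 0.0665), and a gene model overlapping the locus makes the count uncertain.

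Nanog, with 233, 213 and 244 CPM on day 2 and 244, 311 and 379 CPM on day 1, did not pass (-0.44 ± 0.22, adjusted p = 0.249). Sox2 (0.46, adjusted p = 0.427), Klf4 (0.53, adjusted p = 0.317), Esrrb (0.45, adjusted p = 0.289) and Zfp42 (0.65, adjusted p = 0.101) did not pass either. With the GC trend removed Esrrb was called higher (0.81, adjusted p = 0.0412). Klf4 and Sox2 were highest in day 2 replicate 1, at 98.5 and 93.6 CPM, against 50.2 to 56.1 and 46.9 to 55.1 CPM in the other day 2 libraries. Of 13 tested formative and primed genes, Lef1, a Wnt effector, was higher (1.08 ± 0.29, adjusted p = 0.0273) and Etv4, an FGF target, lower (-1.21 ± 0.34, adjusted p = 0.0336). Both calls ended with the GC trend removed (adjusted p = 0.0753 and 0.478), without any 1 of 4 libraries for Lef1 (0.0592 to 0.195) and without any 1 of 5 for Etv4 (0.053 to 0.154). Otx2 (0.42, adjusted p = 0.536) and Dnmt3b (0.00, adjusted p = 0.997) did not pass. Fgf5 had too few counts to test.

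Genes of the 2-cell embryo differed strongly between libraries of the same day. The 35 listed members summed to 736.7, 639.8 and 252.5 CPM on day 2, against 233.4, 40.18 and 509.6 CPM on day 1, so that the days overlapped. With edgeR 0 of the 26 tested members were called and 6 had an unadjusted p under 0.05, all higher (median log2 fold change 0.90). DESeq2 called 1 member. Without day 1 replicate 3, 8 were called higher. Zscan4c, a marker of 2-cell-like cells, had 103, 69.1 and 34.5 CPM on day 2, against 26.6, 2.36 and 58.7 CPM on day 1 (1.21 ± 0.67, adjusted p = 0.314). Members of these families have near-identical copies, and their single counts are uncertain.

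Of 17 tested primitive endoderm markers edgeR called 0, with 1 higher and 5 lower at an unadjusted p under 0.05, while DESeq2 called 1 higher and 2 lower (median -0.54). Without day 1 replicate 3, 5 were called lower. Apoe, a lipid carrier, had 251, 331 and 331 CPM on day 2 and 709, 799 and 532 CPM on day 1 (-1.16 ± 0.36, adjusted p = 0.0583). Gata6 did not pass (-0.39, adjusted p = 0.657), and Sox17 had too few counts to test. Of 6 tested mesendoderm genes 2 fell (33.3%, beside 5.27% of all tested genes). These were Cdx1 (-1.95 ± 0.40, adjusted p = 0.00446) and Cited1 (-1.29 ± 0.31, adjusted p = 0.0142). Neither was called with the GC trend removed (-0.84 and -0.13, adjusted p = 0.17 and 0.86), and Cited1 was lost without any 1 of 4 libraries (0.0543 to 0.126). Fibroblast markers, tested for the feeder cells, had 0 of 27 called by edgeR, with 2 higher and 2 lower at an unadjusted p under 0.05, and DESeq2 called 1 lower (median 0.17). Bgn, a proteoglycan of connective tissue, had 41.7, 47.8 and 45.2 CPM on day 2 and 99.9, 174 and 51.6 CPM on day 1 (-1.27, adjusted p = 0.0583). The share of feeder RNA in the other results was not tested.

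Splicing factors were of interest because PlaB binds SF3B. Of 53 tested factors 4 fell and 49 did not pass, and the median was 0.13. The share that fell, 7.55%, was near the 5.27% of all tested genes, so the falls below describe single genes. At an unadjusted p under 0.05 in edgeR's test, 11 factors were higher and 9 lower, and DESeq2 called 7 higher and 4 lower. In 15 every day 2 library lay above every day 1 library (beside 15.6% of all genes), and in 10 below (beside 16.5%). The listed factors summed to 17910, 18380 and 18020 CPM on day 2, against 14240, 14100 and 15900 CPM on day 1. Sf3b4, a subunit of SF3B (chromosome 3, 96172332 to 96177564), had 18.3, 11.1 and 8.78 CPM on day 2, against 128, 141 and 113 CPM on day 1 (-3.32 ± 0.39, adjusted p = 3.29e-05; -2.83 with the GC trend removed). Other gene models overlap it, so its count is uncertain. The other SF3B genes did not share this fall. Sf3b1, which encodes a subunit that PlaB contacts, had 609, 732 and 682 CPM on day 2 and 580, 527 and 687 CPM on day 1 (0.17 ± 0.21, adjusted p = 0.681). Sf3b2 (0.16), Sf3b3 (0.36), Sf3b5 (-0.19), Sf3b6 (0.57) and Phf5a (0.30) did not pass, with adjusted p between 0.171 and 0.752. Snrpc, a protein of the U1 particle, fell to 43.2, 21.1 and 24.5 CPM on day 2, against 162, 156 and 191 CPM on day 1 (-2.52 ± 0.25, adjusted p = 5.48e-06). Another U1 protein gene, Snrpa (-1.43 ± 0.21, adjusted p = 0.000308), and the SR protein gene Srsf9 (-1.76 ± 0.25, adjusted p = 0.000204) fell too. These 4 genes were the calls of the list with the GC trend removed as well.

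Among 28 tested p53 targets 6 fell (21.4%, beside 5.27% of all tested genes) and 22 did not pass (median -0.25). Phlda3, an inhibitor of AKT signalling, had 2.86, 1.69 and 1.34 CPM on day 2, against 44.8, 56.1 and 21.6 CPM on day 1 (-4.38 ± 0.40, adjusted p = 4.21e-06). Pltp, a phospholipid transfer protein whose locus overlaps Ctsa, fell by 2.71 ± 0.47 on the log2 scale (adjusted p = 0.00124). Bbc3 was called lower too, but not with the GC trend removed (-1.35, adjusted p = 0.328) or without any 1 of 5 libraries (0.0604 to 0.129). The targets Mdm2 (-0.12, adjusted p = 0.766), Cdkn1a (-0.76, adjusted p = 0.152) and Ccng1 (-0.14, adjusted p = 0.761) did not pass. Cdkn1a had 117, 107 and 108 CPM on day 2 and 192, 207 and 167 CPM on day 1. With the GC trend removed 3 targets were called lower, and without 1 library 2 to 8, the higher end being without day 1 replicate 3.

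Of 77 cytosolic ribosomal protein genes, 6 rose on day 2 (7.79%, beside 1.69% of all tested genes) and 71 did not pass, with a median log2 fold change of 0.65. In 57 of them every day 2 library lay above every day 1 library, beside 15.6% of all genes, and in 2 every day 2 library lay below, beside 16.5%. Rps27a had 2560, 2590 and 2450 CPM on day 2, against 1070, 1230 and 1540 CPM on day 1 (0.99 ± 0.26, adjusted p = 0.0259), and Rpl26 had 1180, 957 and 963 CPM on day 2, against 436, 543 and 621 CPM on day 1 (0.95 ± 0.27, adjusted p = 0.0342). Such counts were sensitive to the setting: 14 were called with the GC trend removed, 21 with DESeq2, 47 when only the 6 libraries were fitted, and 0 to 5 without 1 library. The calls of Rps27a and Rpl26 ended without any 1 of 5 libraries (adjusted p = 0.0749 to 0.15 and 0.0758 to 0.187). Rps27a did not pass with the GC trend removed (0.78, adjusted p = 0.1), whereas Rpl26 did (1.44, adjusted p = 0.0069).

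Of 74 nuclear-encoded respiratory chain genes 3 rose (4.05%, beside 1.69% of all tested genes) and 2 fell (2.7%, beside 5.27%), with a median of 0.26. The ATP synthase gene Atp5d had 109, 115 and 98.8 CPM on day 2, against 337, 399 and 307 CPM on day 1 (-1.69 ± 0.22, adjusted p = 8.23e-05). Cox6c (0.97), Cox7c (1.02) and Ndufs4 (0.77) rose. Each of these 3 calls ended with the GC trend removed (adjusted p = 0.092, 0.273 and 0.143). Each also ended without any 1 of at least 5 libraries (adjusted p = 0.0517 to 0.215). The 11 tested mitochondrially encoded genes had a median of 0.71, and mt-Nd6 was called (0.91, adjusted p = 0.0391), but not with the GC trend removed (0.44, adjusted p = 0.383) or without any 1 of 4 libraries (0.068 to 0.309). Of 30 glycolysis and hypoxia genes, Hk2 rose (0.87 ± 0.22, adjusted p = 0.0219) and Aldoa, Hk1, Gpi1 and Slc2a1 fell. The shares were 3.33% higher and 13.3% lower, beside 1.69% and 5.27% of all tested genes. For Hk1, another hexokinase gene, the log2 fold change was -1.39 ± 0.35, with an adjusted p of 0.0184. Both calls ended without any 1 of 4 libraries (0.0706 to 0.115 for Hk2 and 0.0777 to 0.114 for Hk1). The calls of Aldoa and Slc2a1 ended without any 1 of 5 (0.0545 to 0.0824 and 0.0768 to 0.185). Hk1 (-0.83, adjusted p = 0.125) and Slc2a1 (-0.62, adjusted p = 0.218) did not pass with the GC trend removed, and then 2 genes of the list were called lower.

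The other lists held few calls, to be read beside the 1.69% of all tested genes called higher and the 5.27% called lower. In S phase genes 3 of 29 fell (10.3%). Among them were both large subunits of the chromatin assembly factor, Chaf1a (-1.41 ± 0.36, adjusted p = 0.019) and Chaf1b (-1.11 ± 0.31, adjusted p = 0.0328). The calls of Chaf1a and Chaf1b ended without any 1 of 4 and of 5 libraries (0.0797 to 0.0996 and 0.0855 to 0.154). No member of the 30 genes of G2 and M phase was called by edgeR, 3 were higher and 2 lower at an unadjusted p under 0.05, and DESeq2 called 1 higher. Of 26 stress response genes 3 fell, including the chaperone gene Sdf2l1 (-1.67 ± 0.29, adjusted p = 0.00132). With the GC trend removed 1 of the 26 was called higher and 1 lower. The calls of Cebpb and Creld2 ended in that setting (adjusted p = 0.453 and 0.242). Creld2 was also lost without any 1 of 5 libraries (0.115 to 0.238). Of 19 apoptosis regulators Bcl2l1 fell (-1.18 ± 0.31, adjusted p = 0.0253), a call that ended with the GC trend removed (adjusted p = 0.229) and without any 1 of 4 libraries (0.0603 to 0.174). Mbd3, a subunit of the NuRD complex, fell among 15 genes of DNA methylation (-1.47 ± 0.28, adjusted p = 0.00298), but not with the GC trend removed (-0.28, adjusted p = 0.536). Cholesterol synthesis had 1 lower of 23, YAP targets 1 lower of 13, FGF signalling 1 lower of 14, MHC class I and interferon genes 1 lower of 19, and Wnt targets 1 higher and 2 lower of 12. Leaving out 1 library gave 0 to 3 lower in cholesterol synthesis, 0 to 2 in the MHC list and 0 to 1 in the YAP and FGF lists. The single calls Mvd (-0.41, adjusted p = 0.362), H2-D1 (-0.57, adjusted p = 0.214) and Etv4 did not pass with the GC trend removed. Of the Wnt targets, 0 were called in either direction in that setting. In the Nodal list of 8 tested genes edgeR called 0, with 1 higher and 2 lower at an unadjusted p under 0.05, and DESeq2 called 1 lower.

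**Figure D4:**
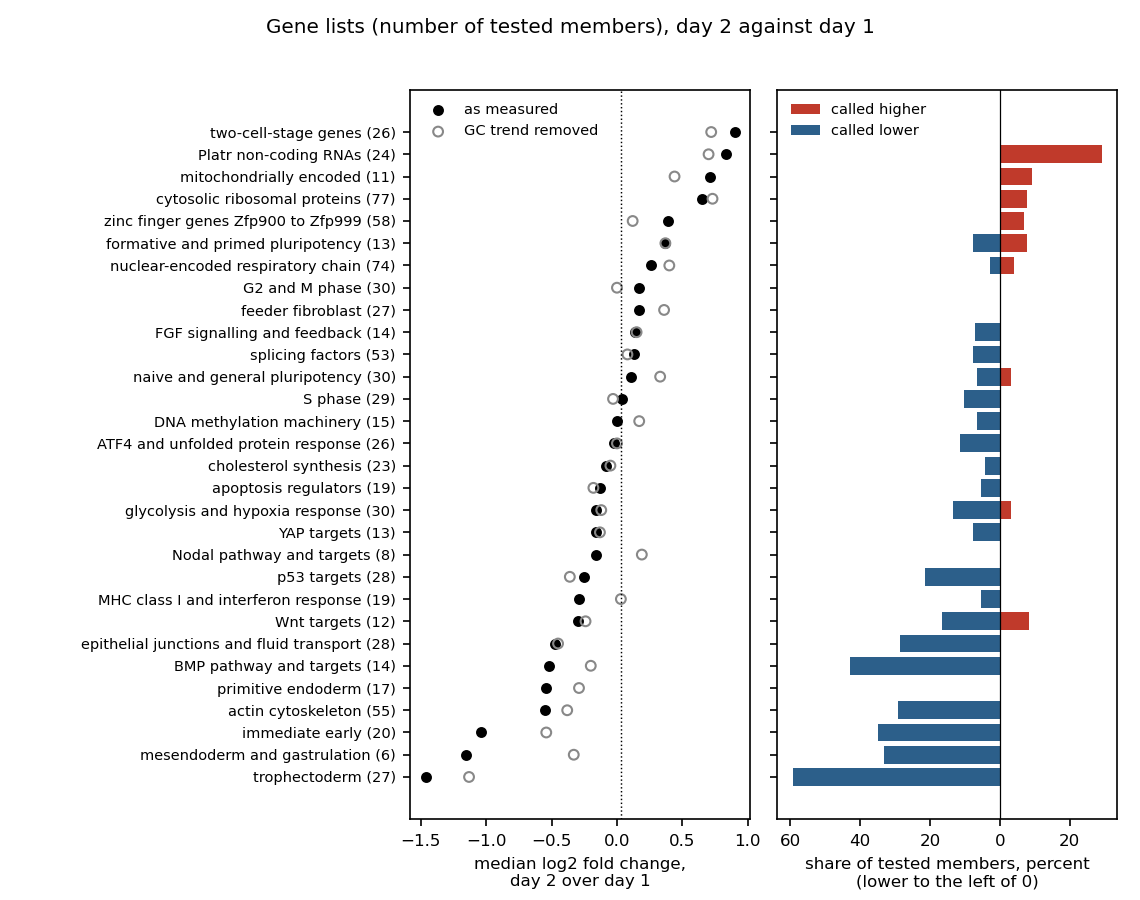
Left, the median log2 fold change of each gene list, day 2 over day 1, as measured and with the GC trend removed; the dotted line is the median of all tested genes, 0.03. Right, the share of tested members called higher or lower; trophectoderm markers had the lowest median, -1.46, with 16 of 27 called lower. The lists of actin cytoskeleton, Platr and Zfp900 to Zfp999 genes were chosen after the values were seen.

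Levels on the following days were also read for some of these genes. The first step was tested against the mean daily step from day 3 to day 5, which uses other libraries. The difference passed for 1687 genes whose first step lay above that later step (11.2%). It passed for 2036 genes whose first step lay below it (13.5%), which made 24.6% of genes in all. A gene can pass through its later step alone, and the step from day 2 to day 3 does not enter this test. Of the 27 trophectoderm markers 23 had a first step below the later mean step in this test, and 1 had a first step above it. Krt18 averaged 249, 90.3, 25.4, 578 and 909 CPM on days 1 to 5, and its first step was 4.04 ± 0.34 log2 units below the later mean step (difference -4.04, adjusted p = 3.07e-07). Gata2 averaged 9.91, 2.34, 2.36, 22 and 72.1 CPM on days 1 to 5 (difference -4.53, adjusted p = 6.1e-08). Id2 averaged 273, 110, 79.2, 265 and 698 CPM (difference -2.88, adjusted p = 2.29e-07). In these 3 genes day 5 was above day 1, with day 2 or day 3 the lowest. Fos averaged 19.7, 7, 3.18, 7.26 and 49.3 CPM over the 5 days. Sf3b4 averaged 127, 12.7, 9.01, 10.1 and 6.21 CPM, and so stayed low after day 2. L1td1 averaged 177, 352, 406, 222 and 109 CPM (difference 1.94, adjusted p = 5.17e-06), with its highest mean on day 3. Ccl8 averaged 3.55, 32, 25.4, 3.03 and 3.19 CPM, so that its day 4 and day 5 means were near that of day 1.

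**Figure D5:**
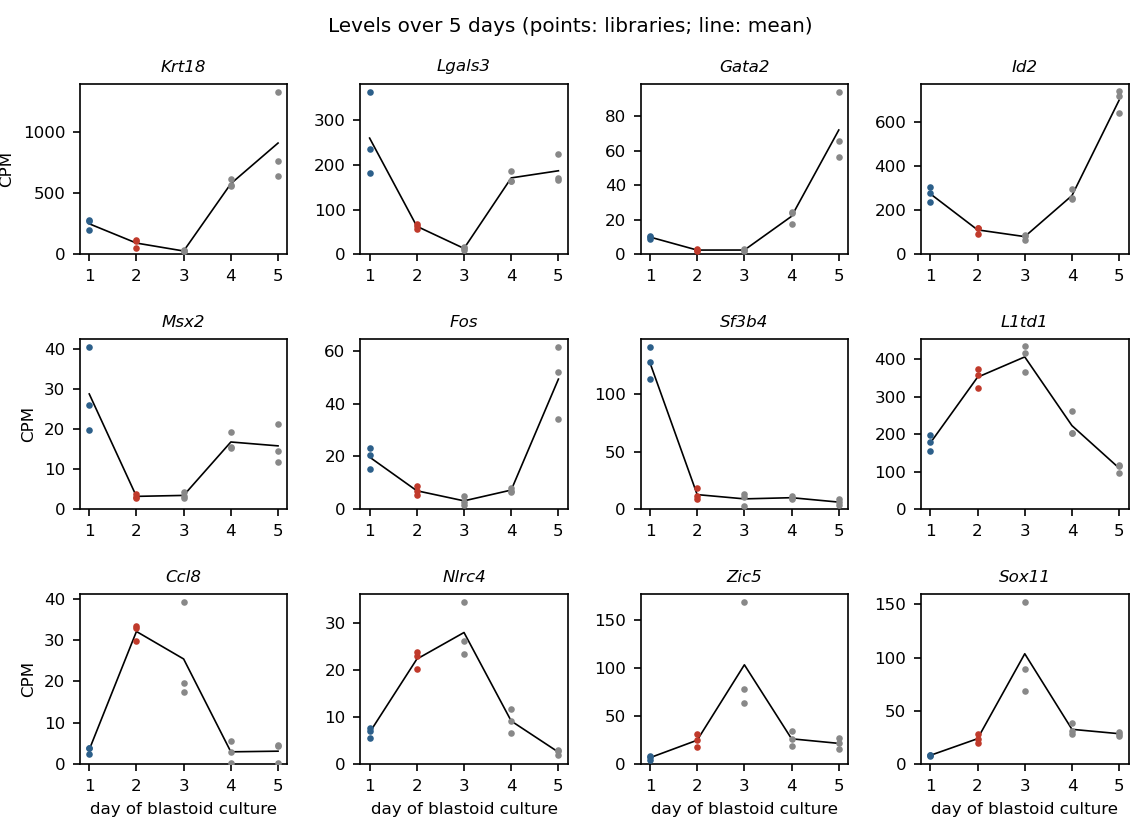
Level in CPM of 12 genes in each library of days 1 to 5 (points) with the daily mean (line); day 2 is red, day 1 blue and the later days grey. Krt18, Gata2, Id2 and Fos have their lowest means on day 2 or 3 and higher ones by day 5, whereas Sf3b4 stays near its day 2 level of 12.7 CPM.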

How the data were processed

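Polyadenylated RNA from the blastoid libraries was sequenced after Smart-seq2. The deposited table holds raw read counts per gene, which the authors made with STAR 2.7.10b and HTSeq 0.13.5 on mm10, per the submitters' processing notes; the annotation and strand setting were not given in those sources. Genes with low counts were removed (filterByExpr, minimum count 10), libraries were scaled by TMM, and all 15 blastoid libraries entered 1 edgeR 4.0.16 quasi-likelihood fit (R 4.3.3) with the contrast day 2 minus day 1 and Benjamini-Hochberg adjustment at 0.05. The GC alternative removed a lowess trend on transcript GC content from each library. Coordinates and GC content came from GENCODE M21 (GRCm38), in which 53663 of 54352 symbols matched 1 gene. On simulated counts over 14501 genes, 52% of genes changed 2-fold and 100% of those changed 4-fold were recovered. Only genes averaging at least 10 CPM were changed and no GC trend was simulated, so recovery at lower levels was not tested. Named genes were the 12 largest called changes each way (mean of at least 10 CPM on the higher day, no overlap between days, numbered gene models and pseudogenes left out), the 4 lowest adjusted p-values in each list, and fixed markers; 136 of them were tested. Single-gene alternatives were computed for these, and further list members were named after their values were seen. Members and lists were chosen with earlier results of these data known. Equal replicate numbers did not pair libraries. The table of 2D cultures was not used here.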

Additional observations from a re-analysis of the deposited data

Results flagged for a closer look

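The first step, day 2 over day 1, was compared with the mean daily step from day 3 to day 5 for the 24 genes with the largest changes, and the difference passed edgeR's test for each. Among genes that rose on day 2, the log2 difference between the steps was 8.67 for Ccl12, 4.70 for Ccl8, 4.20 for H2-T23, 3.21 for Ccdc63, 4.04 for Zmat4, 2.94 for Zic5, 2.96 for Map7d3, 3.42 for Nlrc4, 2.67 for Rpl39l, 2.77 for Ubd, 2.35 for Platr27 and 2.43 for Sox11. Among genes that fell, it was -4.45 for Lypla2, -4.95 for Ier5l, -4.71 for Phlda3, -4.18 for Ube2m, -4.78 for Nrtn, -4.47 for Map1lc3a, -3.23 for Aes, -3.70 for Ppp1r35, -4.15 for Sfn, -3.02 for Sf3b4, -4.23 for Msx2 and -2.85 for Abhd17a. These genes were picked for the size of their first step, which enters the difference, so that a difference of this sign is partly set by the choice.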

How the results depend on the processing

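Calls were 255 higher and 797 lower on day 2. They numbered 392 higher with DESeq2, 402 lower with the GC trend removed, 731 higher and 1305 lower with only the 6 libraries fitted, and 156 higher and 1373 lower with total-count scaling, which moved the median of all genes to -0.17. Genes called higher made up 24.2% of calls, against 10.2% with total-count scaling, 34.3% with the GC trend removed and 35.9% with the 6 libraries. With the replicate number as a block there were 162 calls higher and 605 lower; same-numbered libraries had correlations of -0.0903, 0.0289 and -0.136. Leaving out 1 library gave 60 to 388 higher and 366 to 1102 lower. Of changes of at least 2-fold (173 and 704), 288 were lower with the GC trend removed, 114 higher and 1157 lower with total-count scaling, and 56 to 263 and 359 to 991 without 1 library. The step difference (1687 and 2036) gave 1034 to 1745 and 1430 to 2190. Of 77 named calls 40 held in every setting computed for single genes, which were up to 13 of the 16 alternatives. Values that changed sign were all uncalled: with the GC trend removed Srebf2 (0.12), Dnmt3b (0.20), Gata6 (0.02) and Sf3b1 (-0.07); with total-count scaling Gata3 (-0.07) and Sf3b1 (-0.02); with 6 libraries Dnmt3b (0.00); without 1 library Dnmt3b (-0.06 to 0.06), Gata3 (-0.09 to 0.33) and Mdm2 (-0.20 to 0.02). The cause was not tested. Depth limits genes of a few counts, such as Cdx2.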

Other observations

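These groups were chosen after the values were seen, so their counts are descriptions. Of 55 genes of the actin cytoskeleton 16 were called lower on day 2 (29.1%, beside 5.27% of all tested genes) and 39 did not pass (median log2 fold change -0.55). With the GC trend removed 11 were called lower. Cfl1, which encodes the actin-severing protein cofilin, had 319, 319 and 272 CPM on day 2, against 1170, 1350 and 1020 CPM on day 1 (-1.96 ± 0.31, edgeR adjusted p = 0.00058). Pfn1, which encodes profilin, had 372, 323 and 334 CPM on day 2, against 1240, 1300 and 1030 CPM on day 1 (-1.79 ± 0.39, edgeR adjusted p = 0.00657). Without day 1 replicate 2 the list had 10 calls lower.

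Platr non-coding RNAs, named for their expression in pluripotent cells, were higher in part. On day 2, 7 of 24 were called higher (29.2%, beside 1.69% of all tested genes) and 17 did not pass (median 0.83). With the GC trend removed 4 were called higher (median 0.70). Platr14 had 351, 282 and 295 CPM on day 2, against 125, 124 and 227 CPM on day 1 (0.97 ± 0.22, edgeR adjusted p = 0.0117). Without day 1 replicate 1 the list had 1 call, without day 1 replicate 2 it had 2, without day 2 replicate 1 it had 3, and without day 2 replicate 2 or 3 it had 4. Of 58 zinc finger genes named Zfp900 to Zfp999, 4 were called higher (6.9%, beside 1.69% of all tested genes; median 0.39), and 16 without day 1 replicate 3. With the GC trend removed edgeR called none of them, with a median of 0.12. The desaturase gene Scd2, of fatty acid synthesis, had 212, 177 and 161 CPM on day 2, against 65.8, 77.8 and 69.8 CPM on day 1 (1.37 ± 0.26, edgeR adjusted p = 0.00223). The gene model Gm10800 had 2580, 2640 and 3200 CPM on day 2, against 210, 192 and 474 CPM on day 1 (3.26 ± 0.59, edgeR adjusted p = 0.00195). Gm21738 had 660, 713 and 783 CPM on day 2, against 51.3, 51.9 and 143 CPM on day 1 (3.13 ± 0.60, edgeR adjusted p = 0.00438). Such models resemble repeats, so that their counts are uncertain.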
